A study of Mus musculus with 8 samples.

Results

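Lysosomal cathepsins were followed here as 10 genes, Ctsa, Ctsb, Ctsc, Ctsd, Ctse, Ctsh, Ctsk, Ctsl, Ctsz and Lgmn, through every probe set annotated to 1 of these symbols alone. This gave 22 of the 45101 probe sets of the array. Of the 22, 20 lay at or above the median brightness of all probe sets and entered the test, and every gene had at least 1 tested probe set. The samples were 4 leptin pools, from female B6.V-Lep ob mice given 5 µg of recombinant mouse leptin per g body weight each day by the intraperitoneal route for 4 weeks, and 4 saline pools, from mice of the same strain, sex and age injected with saline. Both groups carried the obese mutation of the leptin gene, so that no functional leptin of their own was made, and no lean or wild-type mice were among the samples. All mice were on chow and were 12 weeks old at gallbladder removal after an overnight fast. Each pool joined 3 gallbladders, and each array measured 1 pool, so p-values measure the spread between pools of animals and not between single mice. Pools keep their label numbers, leptin 5 to 8 and saline 1 to 4.

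Cathepsins are proteases that work mainly in the acid of lysosomes and endosomes, where they break down proteins taken up or recycled by the cell. Most are cysteine proteases, while cathepsins D and E are aspartic proteases and cathepsin A is a serine carboxypeptidase. They are made as inactive precursors that are cleaved in the lysosome, and cystatins and related proteins inhibit the cysteine members. Macrophages and other antigen-presenting cells are rich in them, and epithelial cells and fibroblasts contain them too.

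With leptin, 3 of the 10 genes rose and 0 fell at a limma adjusted p under 0.05, namely Ctsk, Ctsa and Ctsc, each read from its brightest probe set. Among all 11719 tested genes read in the same way, 8.27% were called in either direction, 4.29% higher and 3.98% lower. Over probe sets, 3 of 20 were called, all higher, against 6.93% of all 22519 tested probe sets (3.54% higher, 3.39% lower). The median log2 fold change was 0.21 over the 10 genes, against 0.020 over all tested genes. Leptin pools lay wholly above saline pools in 3 of the 20 probe sets and wholly below them in 0, where 8.1% and 7.4% of all tested probe sets did so and 15.5% did in either direction. Ctsk stood apart in size, with a fold of 2.22, while Ctsa and Ctsc changed by 1.34-fold and 1.28-fold. The other 7 genes did not pass, and their log2 fold changes lay between -0.20 and 0.25. Signals are MAS 5.0 intensities on a linear scale, and log2 fold changes are leptin minus saline on the log2(signal + 8.2) scale, which understates the change of dim genes. Errors of fold changes are standard errors, and each treatment had n = 4 pools.

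**Figure D1:**
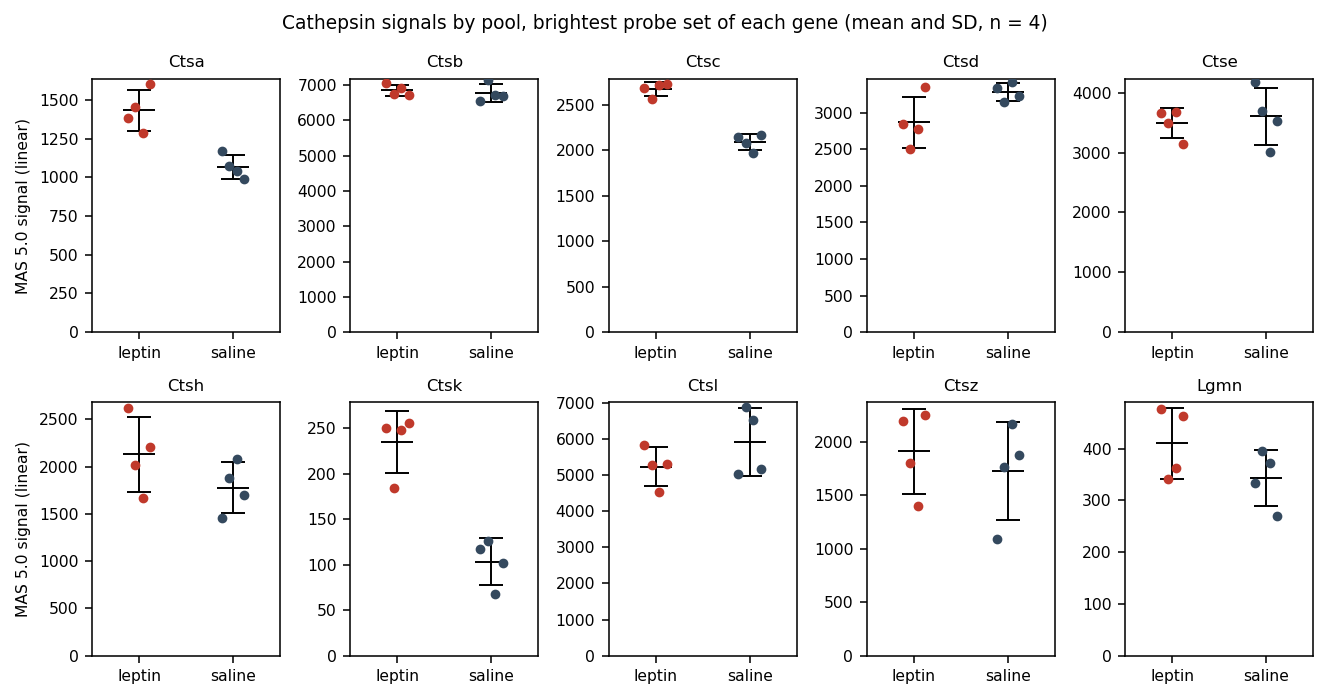
Signal of each cathepsin gene in the 4 leptin pools (red) and the 4 saline pools (dark), from the brightest probe set of the gene on a linear axis that starts at 0, with mean and SD. The groups do not overlap for Ctsa, Ctsc and Ctsk and overlap for the other 7 genes.

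Among the cysteine endopeptidases, cathepsin K (Ctsk) is the strong collagen-degrading enzyme of the family and is best known from bone-resorbing osteoclasts. Its 1 probe set gave signals of 250.4, 184.6, 248.1 and 256.2 in leptin pools 5 to 8, against 117.7, 126.0, 67.4 and 101.4 in saline pools 1 to 4. Every leptin pool lay above every saline pool, and all 8 pools lay above the background signal of 46.0. The mean was 235 ± 33.7 in leptin pools and 103 ± 25.9 in saline pools (SD, n = 4 each), a log2 fold change of 1.15 ± 0.22 with a 95% confidence interval of 0.68 to 1.62 (limma adjusted p = 0.00787). With the actin 3' to 5' ratio of the arrays as a covariate the log2 fold change was 1.22 ± 0.34. The error was wider and the call was lost (limma adjusted p = 0.0734). The ratio, a measure of RNA quality that rises as RNA degrades, averaged 1.89 ± 0.207 in leptin pools and 1.60 ± 0.0882 in saline pools (SD, n = 4 each). The same ratio for Gapdh averaged 0.818 ± 0.0248 in leptin pools and 0.813 ± 0.0409 in saline pools.

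The promoters of the 3 genes that rose are shown because these genes moved in the same direction. Sequences are from RefSeq for GRCm38.p6 and run from 250 bases before to 50 bases after a transcription start, and 7 of the 10 genes had at least 1. Capitals mark CACGTG, the core letters bound by basic helix-loop-helix factors such as TFEB, and TTCNNNGAA, the core letters bound by STAT factors. The motif TGANTCA, the letters bound by AP-1, was searched as well. All 3 read the same on both strands, and none of the matches overlap.
Ctsk, chr3:95498960-95499259, plus strand: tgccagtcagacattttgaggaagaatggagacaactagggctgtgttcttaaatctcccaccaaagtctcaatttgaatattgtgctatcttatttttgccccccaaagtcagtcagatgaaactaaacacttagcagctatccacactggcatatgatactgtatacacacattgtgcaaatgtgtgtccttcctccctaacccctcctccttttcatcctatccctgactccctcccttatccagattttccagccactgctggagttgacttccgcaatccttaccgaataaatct
Ctsa, chr2:164833523-164833822, plus strand: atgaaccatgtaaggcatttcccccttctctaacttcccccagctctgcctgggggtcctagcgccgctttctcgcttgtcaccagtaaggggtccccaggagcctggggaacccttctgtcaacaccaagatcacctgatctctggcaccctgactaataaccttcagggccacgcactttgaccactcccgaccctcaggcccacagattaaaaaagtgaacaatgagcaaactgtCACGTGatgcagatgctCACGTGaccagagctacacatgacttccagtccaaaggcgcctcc
Ctsc, chr7:88277835-88278134, plus strand: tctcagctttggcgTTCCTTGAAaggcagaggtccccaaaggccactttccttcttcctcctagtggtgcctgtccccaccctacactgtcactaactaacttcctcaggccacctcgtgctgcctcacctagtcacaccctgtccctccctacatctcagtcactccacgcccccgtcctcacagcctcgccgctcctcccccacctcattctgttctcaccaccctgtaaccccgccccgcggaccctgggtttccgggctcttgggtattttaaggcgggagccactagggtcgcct

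The Ctsk window held none of the 3 motifs. Ctsa has 2 listed starts, and the window shown held CACGTG 12 bases before the start and again 5 bases after it, while the window of the other start held none of the 3. Ctsc held TTCNNNGAA 236 bases before its start. Of the 9 windows of the 7 genes, CACGTG was found in 4 (of Ctsa, Ctsd, Ctsl and Lgmn), TTCNNNGAA in 1 and TGANTCA in 0. Lgmn also has 2 listed starts, and the window of the upstream start held none of the 3 motifs. For both Ctsa and Lgmn, the window with CACGTG was that of the downstream start. Of all 32851 windows of this length, 7.15% held CACGTG, 8.30% held TTCNNNGAA and 7.81% held TGANTCA. Of the 4 genes with CACGTG, only Ctsa was called, and Ctsd and Ctsl had negative fold changes on their brightest probe sets.

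Cathepsins B and L are the abundant general endopeptidases of lysosomes, and cathepsin L also trims the invariant chain of MHC class II molecules in some cells. Neither was called. Ctsb gave 7052.1, 6737.0, 6921.5 and 6716.5 in leptin pools and 6538.5, 7145.9, 6716.2 and 6697.2 in saline pools on its brightest probe set. The groups overlapped almost wholly, and the log2 fold change was 0.018 ± 0.081 with a 95% confidence interval of -0.16 to 0.19 (limma adjusted p = 0.919). A second bright probe set, 1448732_at, gave 0.020 ± 0.088. The dimmer probe sets of Ctsb, 1417491_at and 1417492_at, stood at 0.37 ± 0.19 and 0.25 ± 0.13 and were not called either. The fifth, 1444987_at, was too dim to be tested, with 1 leptin and 1 saline pool under background.

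Ctsl gave 5837.3, 5280.9, 4534.5 and 5301.7 in leptin pools, against 5045.0, 6908.6, 6532.5 and 5178.5 in saline pools. The leptin pools lay within or below the saline range, and the log2 fold change was -0.17 ± 0.12 (95% confidence interval -0.43 to 0.098; limma adjusted p = 0.440). A dim probe set of Ctsl, 1457724_at, pointed the other way at 0.28 ± 0.25 (limma adjusted p = 0.534).

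Of the cysteine exopeptidases, cathepsin C (Ctsc), also called dipeptidyl peptidase I, removes pairs of amino acids from protein ends and activates the granule serine proteases of neutrophils, mast cells and cytotoxic lymphocytes. It gave 2682.7, 2561.7, 2714.4 and 2730.6 in leptin pools and 2148.5, 2079.5, 1977.1 and 2167.1 in saline pools. The pools within each treatment lay close together and the treatments did not overlap. The log2 fold change was 0.35 ± 0.090 (95% confidence interval 0.16 to 0.55; limma adjusted p = 0.0343). A dim second probe set, 1437939_s_at, gave nearly the same value with a wider error, 0.37 ± 0.22 (limma adjusted p = 0.324). The third, 1446834_at, was not tested, with 2 saline pools under background.

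Cathepsin H (Ctsh) is mainly an aminopeptidase, and cathepsin Z (Ctsz) a carboxypeptidase found in cells of the immune system. Ctsh gave 2623.3, 2015.1, 1673.3 and 2209.2 in leptin pools, against 1451.5, 1880.3, 2083.6 and 1698.5 in saline pools. The treatments overlapped, with leptin 7 below 3 of the 4 saline pools, and the log2 fold change was 0.25 ± 0.15 (limma adjusted p = 0.329). Its other probe set, 1443814_x_at, stood at 0.33 ± 0.13 (limma adjusted p = 0.146). This probe set passed only without leptin 7 (0.44, limma adjusted p = 0.0496). Without any other single pool the limma adjusted p was 0.113 to 0.291. With the actin covariate the value was 0.041 (limma adjusted p = 0.923). Ctsz gave 2196.5, 1797.9, 1399.2 and 2248.6 in leptin pools and 1089.1, 1766.2, 2164.8 and 1873.6 in saline pools. Saline 1 was the lowest of all 8 pools and leptin 7 the next lowest, and the log2 fold change of 0.17 ± 0.20 did not pass (limma adjusted p = 0.660). The other 2 probe sets of Ctsz were at 0.41 ± 0.18 and 0.30 ± 0.15 (limma adjusted p = 0.196 and 0.245).

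Cathepsin A (Ctsa) trims the carboxyl ends of peptides and also holds lysosomal beta-galactosidase and neuraminidase in a stable complex. Its signal was 1385.5, 1453.4, 1287.3 and 1605.4 in leptin pools, against 1169.8, 1073.3, 1040.8 and 986.6 in saline pools. The lowest leptin pool lay above the highest saline pool. The mean was 1433 ± 134 in leptin pools and 1068 ± 76.9 in saline pools (SD, n = 4 each), and the log2 fold change was 0.42 ± 0.11 (95% confidence interval 0.18 to 0.66; limma adjusted p = 0.0387). A dim probe set, 1458466_at, gave 0.32 ± 0.26 (limma adjusted p = 0.497).

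Neither aspartic protease was called. Cathepsin D (Ctsd), the main aspartic protease of lysosomes, gave 2841.2, 2504.3, 2779.4 and 3348.5 in leptin pools and 3339.6, 3145.2, 3416.9 and 3224.1 in saline pools. Only leptin 8 reached the saline range, and the log2 fold change was -0.20 ± 0.10 with a 95% confidence interval of -0.43 to 0.024 (limma adjusted p = 0.270). Cathepsin E (Ctse), an endosomal protease of gut-type epithelium and antigen-presenting cells, gave 3654.3, 3496.2, 3678.1 and 3135.4 in leptin pools, against 4172.6, 3695.7, 3017.0 and 3534.9 in saline pools. The leptin pools lay inside the saline range, and the log2 fold change was -0.040 ± 0.11 (limma adjusted p = 0.867). A dimmer probe set of Ctse, 1427797_s_at, had the opposite sign at 0.31 ± 0.14 (limma adjusted p = 0.204).

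Legumain (Lgmn) cuts after asparagine and converts several cathepsins to their 2-chain forms. Its 1 probe set gave 476.5, 341.3, 362.2 and 462.5 in leptin pools and 334.5, 395.7, 372.1 and 270.1 in saline pools. The groups overlapped, and the log2 fold change was 0.25 ± 0.16 (95% confidence interval -0.10 to 0.61; limma adjusted p = 0.381).

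**Figure D2:**
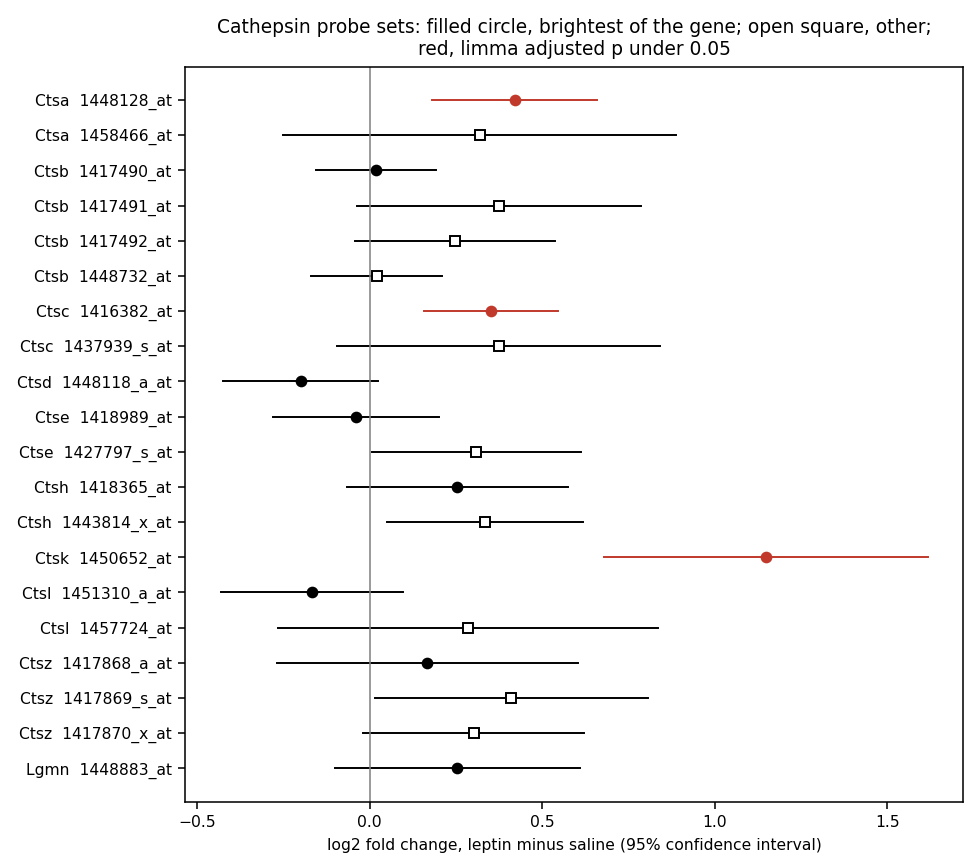
Log2 fold change, leptin minus saline, of the 20 tested cathepsin probe sets with 95% confidence intervals from limma, grouped by gene. The 3 red probe sets passed the threshold; for Ctse and Ctsl the brightest and the dimmer probe set lie on different sides of 0.

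Over all 20 tested probe sets, 17 had a positive and 3 a negative log2 fold change, and 6 had an unadjusted p under 0.05 (limma). Several of these probe sets read the same gene, so they are not independent. By brightest probe set, 7 genes had a positive and 3 a negative value. The median of all tested probe sets was also above 0, at 0.039. How many of all tested probe sets were positive, or had such a p, was not counted. Of the 7 genes with more than 1 probe set, none had 2 called. The suffixes _s_at and _x_at mark probe sets that may also bind transcripts of other genes, so values of Ctse, Ctsh, Ctsz and Ctsc from these are less certain as to the gene.

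The signs of small changes depended on how arrays were scaled. The deposited scaling fixed the trimmed mean, while the median signal of an array was 94 to 107 in leptin pools and 77.8 to 87.3 in saline pools, and 68.4% to 71.0% and 63.3% to 66.9% of probe sets lay above background. The median of all probe sets on an array was 0.25 higher with leptin on the log2 scale, so centring each array on it lowered every log2 fold change by that amount, with 406 higher and 3586 lower calls among all probe sets, in place of 798 and 763. Centred on the median of the tested probe sets alone, which was 0.082 higher with leptin, the split was 619 higher and 1322 lower. Relative to the median of all tested probe sets, Ctsk, Ctsa and Ctsc stood at 1.11, 0.38 and 0.31, and Ctsd and Ctsl at -0.24 and -0.21. With the first centring Ctsk was called higher (0.90), Ctsa (0.17) and Ctsc (0.10) were not called, and Ctsd (-0.45) and Ctsl (-0.42) were called lower (limma adjusted p = 0.0224 and 0.0421). Under the second, only Ctsk among the 10 genes was called. Quantile and cyclic loess scaling left Ctsk, Ctsa and Ctsc called.

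The calls of Ctsa and Ctsc were lost with the actin covariate, without a mean-variance trend in the fit and when the probe sets of a gene were averaged (limma adjusted p from 0.0767 to 0.210). The call of Ctsa was also lost without leptin 5, leptin 6, leptin 8, saline 2, saline 3 or saline 4 (limma adjusted p from 0.0665 to 0.109), and that of Ctsc without any pool but saline 1 (from 0.0518 to 0.0935). Their log2 fold changes then ranged from 0.36 to 0.43 and from 0.32 to 0.37. Ctsk kept its call without each of the 8 pools in turn, with log2 fold changes of 0.97 to 1.26.

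**Figure D3:**
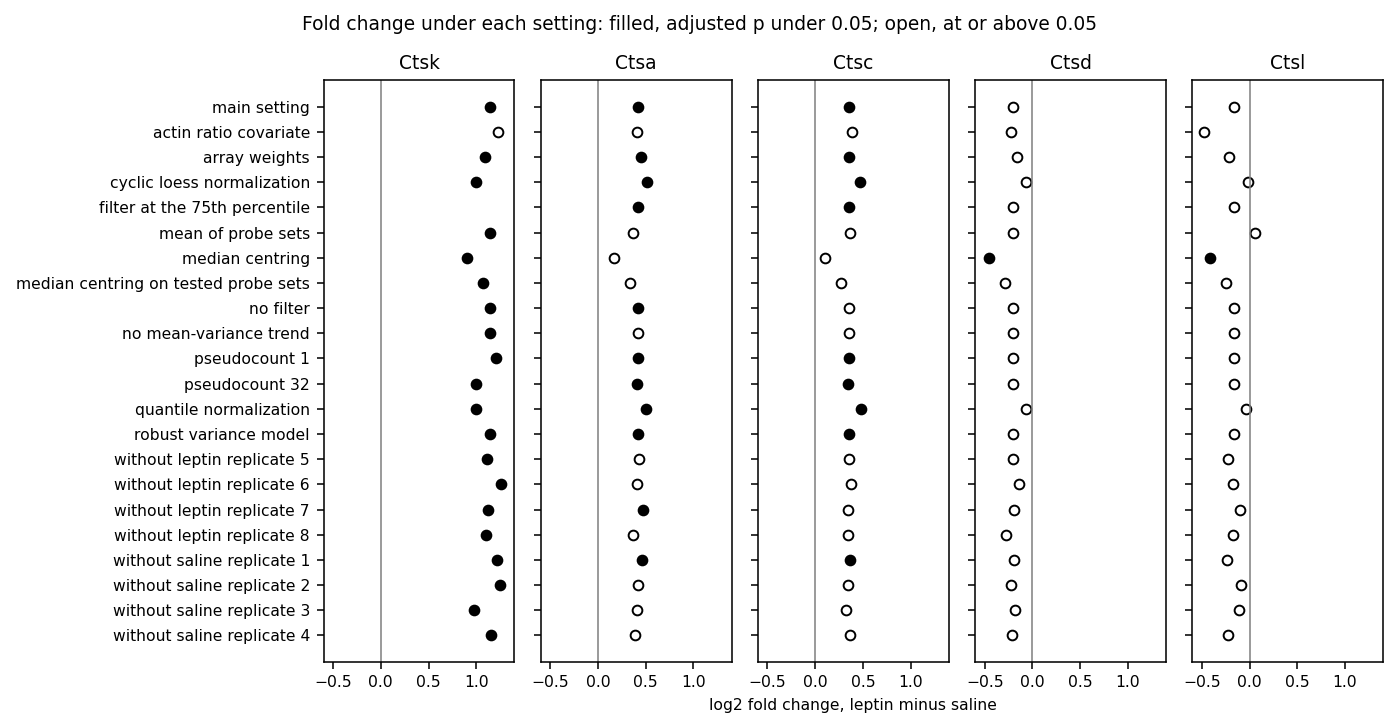
Log2 fold change, leptin minus saline, of 5 cathepsin genes under the setting reported and the alternatives, with filled points where the adjusted p was under 0.05. Ctsk is filled in every setting where it was tested but the one with the actin covariate, and Ctsd and Ctsl are filled only where arrays were centred on the median of all probe sets.

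Genes of proteins that work with or beside the cathepsins were called about as often as genes at large. Over 7 lists of other lysosome genes, 6 of 84 tested genes rose and 3 fell, 10.7% in all against 8.27% of all tested genes, and their median log2 fold change was 0.0079. Of 8 other cathepsins and lysosomal peptidases, 2 rose and 0 fell (median 0.32). Cathepsin S (Ctss), which makes the last cuts in the invariant chain in antigen-presenting cells, gave 2406.7, 1957.1, 2425.0 and 3233.9 in leptin pools, against 923.4, 934.8, 960.8 and 604.5 in saline pools. The treatments lay far apart, with a log2 fold change of 1.54 ± 0.17 (limma adjusted p = 0.000211). The serine carboxypeptidase gene Scpep1 was at 0.55 ± 0.15 (limma adjusted p = 0.0433).

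Of 4 tested cathepsin inhibitors, from 14 listed, 0 rose and 1 fell, and all 4 had a negative log2 fold change (median -0.29). Only 8 of the 14 had a probe set annotated to their symbol alone. Cstdc4, Cstdc5, Cstdc6, Stfa1, Stfa2 and Serpina3g had none and were not read. The rest of the 8 were too dim to be tested. Of these, the stefin gene Stfa2l1 gave 119.6, 88.4, 62.6 and 83.7 in leptin pools, against 47.8, 11.6, 11.5 and 14.2 in saline pools. Cst7 averaged 66.3 ± 37.1 in leptin pools and 24.4 ± 24.7 in saline pools (SD, n = 4 each). Both were higher with leptin on average, and 3 of the 4 saline pools of each lay under background. Cystatin B (Cstb), an inhibitor of cysteine cathepsins inside cells, gave 3002.7, 3769.1, 3754.1 and 3599.2 in leptin pools and 4573.6, 4404.2, 4267.0 and 5337.3 in saline pools. Its groups did not overlap, and its log2 fold change was -0.40 ± 0.11 (limma adjusted p = 0.0461). The call was lost whichever pool was left out (limma adjusted p from 0.0524 to 0.114), and the log2 fold change was -0.27 with quantile and -0.25 with loess normalization, neither called.

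Among 10 genes of mannose 6-phosphate tagging and sorting, which bring newly made hydrolases to the lysosome, 0 were called (median -0.048), and the mannose 6-phosphate receptor genes M6pr and Igf2r were at -0.15 ± 0.090 and -0.013 ± 0.12. Of 27 other lysosomal hydrolases and activators, 1 rose and 1 fell (median 0.039). These were Idua, which degrades glycosaminoglycans (0.68 ± 0.18, limma adjusted p = 0.0380), and Asah1, the acid ceramidase (-0.46 ± 0.11, limma adjusted p = 0.0226).

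Of 14 lysosomal membrane proteins, 3 rose and 0 fell (median -0.017). Laptm5, a protein of blood cell lysosomes, rose by 1.82 ± 0.15, Cd68, a macrophage glycoprotein, by 0.78 ± 0.17 and Cln3 by 0.70 ± 0.17. Of 18 subunits of the vacuolar proton pump, which acidifies the lysosome, 0 rose and 1 fell, Atp6v1h at -0.57 ± 0.13 (median -0.066; limma adjusted p = 0.0222). The transcription factor genes Tfeb, Tfe3 and Mitf, of a family that switches on lysosome genes, were not called and stood at 0.00043 ± 0.35, 0.020 ± 0.15 and 0.36 ± 0.21.

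**Figure D4:**
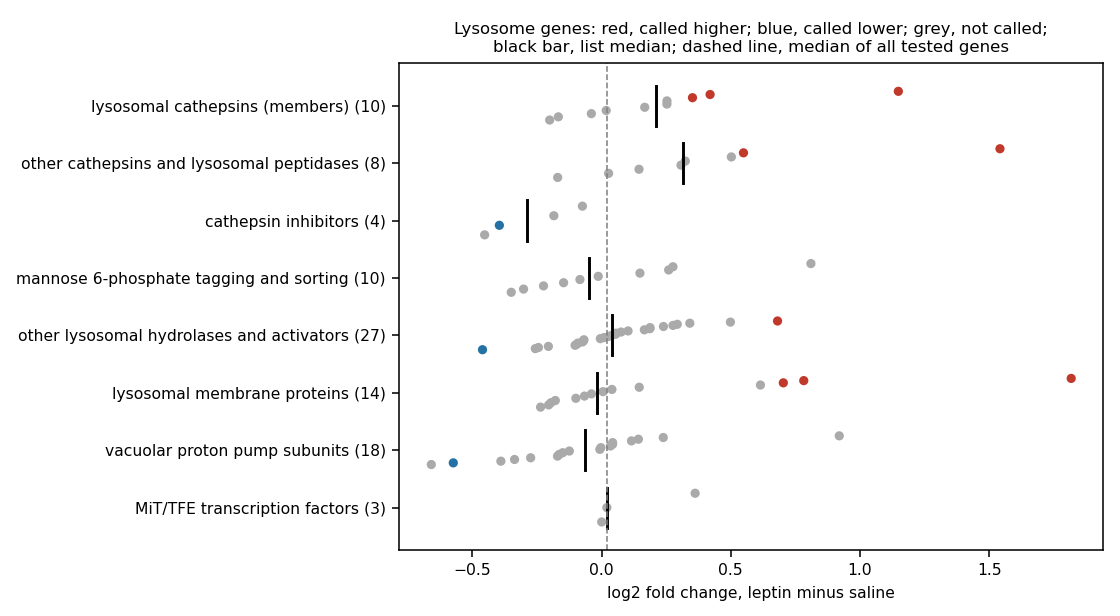
Log2 fold change, leptin minus saline, of the tested genes of the cathepsin list and of 7 lists of other lysosome genes, with the number tested in brackets and the list median as a bar. The highest points are Laptm5, Ctss and Ctsk, and the 4 tested inhibitors all lie below 0.

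Many, but not all, markers of immune cells were higher with leptin. Of 13 tested macrophage markers 10 rose and 0 fell, Cd163 being at 0.010, and the summed signal of the 14 on the array was 11302 to 13129 in leptin pools, against 5482 to 7030 in saline pools. None was at 0 in these pools, and Tyrobp and Itgam rose by 1.89 ± 0.13 and 1.53 ± 0.21. Summed signals also lay wholly higher with leptin for dendritic cell, neutrophil, B and plasma cell and mast cell markers. Dendritic cell sums were 688 to 945 with leptin and 351 to 404 with saline. Neutrophil sums were 3585 to 6164 and 675 to 1161, and B and plasma cell sums 6678 to 9956 and 3885 to 4134. Mast cell sums were 861 to 1286 and 583 to 730. Called in these were 1 of 2 (Itgax, 1.90 ± 0.24), 3 of 4 (such as S100a8, 3.07 ± 0.20, and Ltf, 2.90 ± 0.29), 3 of 4 (such as Jchain and Mzb1, the second at 1.47 ± 0.18) and 3 of 5 (such as Kit, 0.82 ± 0.19, and Cpa3, 0.66 ± 0.16), all higher. Kit and Cpa3 were each called in 9 of 20 alternatives. The brightness filter used the mean over all pools. Itgax, Jchain, Itgam and Cx3cr1 averaged only 60.2 to 69.35 in saline pools, where the median signal of an array was 77.8 to 87.3. They passed the filter through their leptin signal, so counts over tested markers lean toward markers high with leptin. Of 7 dendritic cell markers on the array, only 2 were bright enough to be tested. Jchain, the joining chain of antibodies, gave 5624.6, 3050.6, 5087.1 and 2044.5 in leptin pools, against 63.1, 45.7, 49.8 and 82.3 in saline pools, which lie near background, so that no exact fold is given. Most of the B and plasma cell sum in saline pools was Sdc1, which averaged 3307 ± 264 in leptin pools and 3615 ± 160 in saline pools (SD, n = 4 each) and was not called. The tested neutrophil marker that was not called, Ngp, averaged 136 ± 33.1 in leptin pools and 134 ± 19.8 in saline pools (SD, n = 4 each). Elane and Mpo of that list were too dim to be tested. Elane averaged 53.5 and 51.1, and Mpo 73.7 and 59.6, in leptin and saline pools. Camp and Cxcr2 of the neutrophil list and Ccr7 of the dendritic cell list lay under background on all arrays. The part of these cells in the rise of Ctsk, Ctsa and Ctsc was not tested, and in whole gallbladders more cells of a type and more RNA per cell cannot be told apart.

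Epithelial markers, which define the gallbladder lining, lay above background in all pools. Of 10, 0 rose and 3 fell, the keratin genes Krt7 (-0.96 ± 0.16), Krt8 (-0.58 ± 0.10) and Krt18 (-0.35 ± 0.089). The other 7 were not called. Of these, Muc1 (0.028) and Elf3 (0.32) had positive log2 fold changes, and Epcam was at -0.0062. Krt19 (-0.40, limma adjusted p = 0.0506), Cldn4 (-0.25), Cdh1 (-0.17) and Sox17 (-0.069) were negative. The median of the 10 was -0.21. The summed signal, to which the keratins add much, was 35613 to 39911 in leptin pools and 41629 to 51546 in saline pools. These sums did not overlap either and were lower with leptin. Fibroblast markers, of interest beside Ctsk, overlapped (20199 to 24909 with leptin, 16410 to 20634 with saline), and 1 of 8 rose, Dpt at 0.63 ± 0.12. All 8 had a positive log2 fold change, with a median of 0.34, and the part of fibroblasts in the rise of Ctsk was not tested. Smooth muscle markers overlapped as well (34481 to 43860 and 35705 to 47356). Of 8, 1 was called higher, Smtn at 0.65 ± 0.14, and 1 lower, Actg2 at -0.58 ± 0.14 (called in 11 of 21 alternatives). Only 2 of the 8 had a positive log2 fold change, and the median was -0.13. T and NK cell markers had 0 of 2 called (662 to 950 and 436 to 675). Both had a positive log2 fold change, with a median of 0.75, and only these 2 of the 9 on the array were bright enough to be tested. Of 6 adipocyte markers 1 fell, Cidec at -2.03 ± 0.26 (3527 to 5829 and 3693 to 12450). All 6 had a negative log2 fold change, with a median of -0.66. Hepatocyte markers were bright in both treatments (100158 to 123395 with leptin, 80662 to 127247 with saline), and 1 of 9 rose, Apoa1 at 0.70 ± 0.17 (called in 12 of 21 alternatives). Pancreatic acinar markers had 0 of 3 called (3017 to 4023 and 3085 to 4945).

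**Figure D5:**
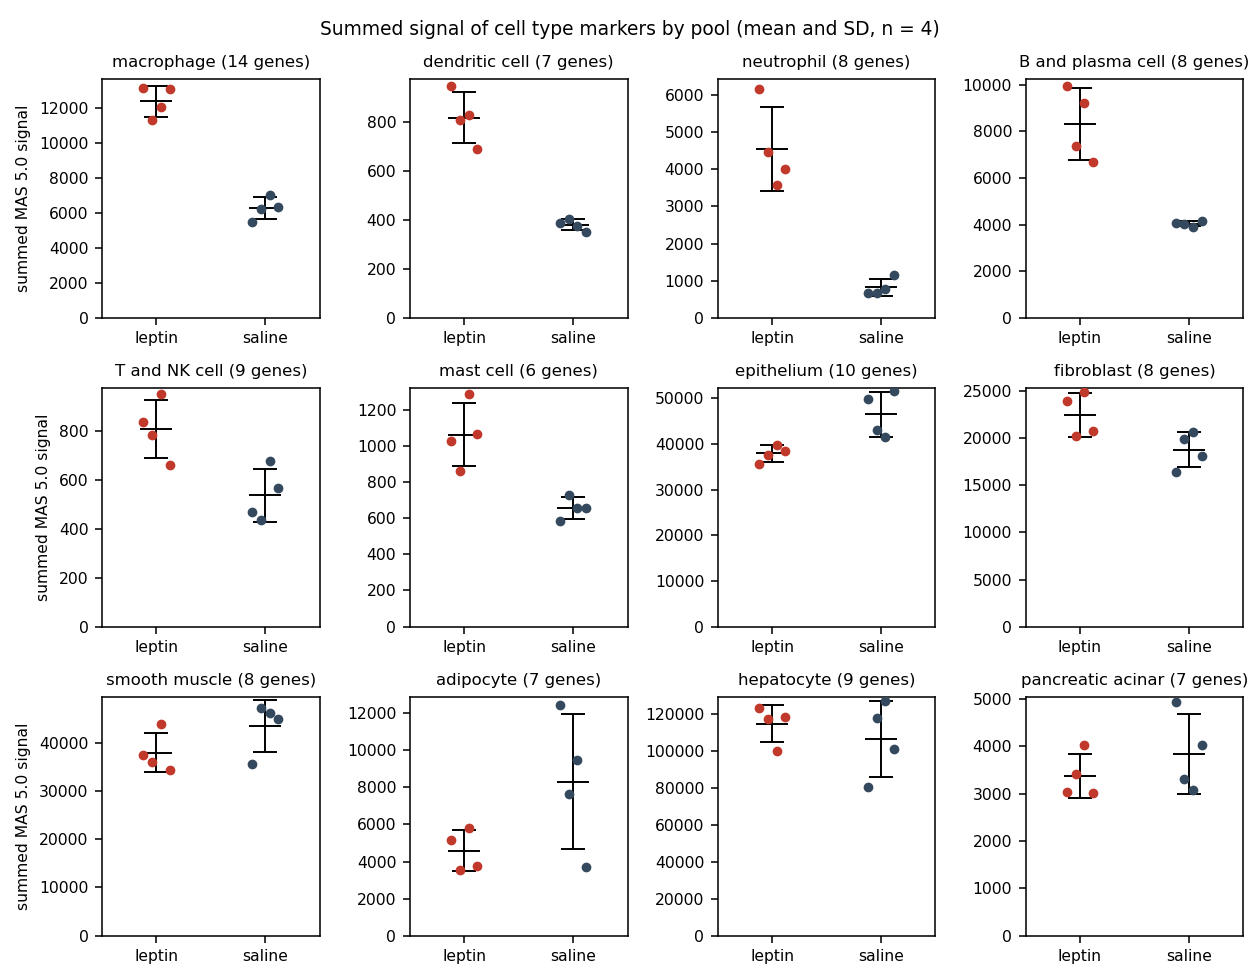
Summed signal of each list of cell type markers in the 4 leptin pools (red) and the 4 saline pools (dark), with mean and SD, on linear axes that start at 0. Macrophage markers lie between 11302 and 13129 in leptin pools and between 5482 and 7030 in saline pools, and the epithelial sums, which include 4 keratins, lie between 35613 and 39911 in leptin pools and between 41629 and 51546 in saline pools.

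The genes whose profile over the 8 pools was most like that of Ctsk were found by the root mean square difference between log2 values, each centred on the gene's own mean. They were C1qa, a chain of complement C1q (difference 0.214), Mgl2, a lectin of macrophages and dendritic cells (0.214), and Creb3l1, a transcription factor (0.216). C1qa averaged 1112 ± 145 in leptin pools and 393 ± 76.5 in saline pools (SD, n = 4 each). Mgl2 averaged 178 ± 35.5 and 85.4 ± 8.04, and Creb3l1 707 ± 86.1 and 400 ± 71.2, in leptin and saline pools. The measure includes the difference between treatments, so genes near Ctsk were bound to be higher with leptin. A shared regulation or cell source was not tested.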

How the data were processed

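RNA of 4 leptin and 4 saline pools was measured on 8 Affymetrix murine 430 2.0 arrays. The authors deposited 1 intensity per probe set and array, the MAS 5.0 signal on a linear scale, per the labels and the series' design text. MAS5 is also named in the submitters' processing notes. The sources used here give no detection call or scan date, and no batch could be checked. The 2% trimmed mean was 250 on every array.

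Signals were scaled to a common 2% trimmed mean and taken to log2(signal + 8.2), the 10th percentile of all values. After removal of 64 control probe sets, the 22519 probe sets at or above the median brightness were tested with limma 3.58.1 in R 4.3.3 (lmFit, eBayes with a trend), two-sided, Benjamini-Hochberg adjusted over all of them, after a test on simulated data. Of 45101 probe sets, 34958 had 1 symbol, 932 several and 9211 none; 34754 were matched by Entrez identifier to GRCm38.p6. A gene was read from its brightest probe set. Background was 46.0, the 95th percentile of 27 control probe sets chosen by name. Whether their sequences had been added to the samples was not checked. The number of arrays limits the precision.

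Named genes were all members, the largest called changes of each list and the 3 profiles most like the member with the largest rise. Members and lists were chosen with earlier results of these data known.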

Additional observations from a re-analysis of the deposited data

Results flagged for a closer look

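Of 68 groups of 4 pools checked over the cathepsin probe sets and marker sums, 3 held a pool far from the others by Dixon's criterion, and chance gives about 1 in 20. Leptin 6 had a Ctsk signal of 184.6, where the other leptin pools had 248.1 to 256.2, and the log2 fold change was 1.26 without it and 1.15 with it. Leptin 7 had a signal of 1480.3 on the Ctsh probe set 1443814_x_at, where the other leptin pools had 1971.1 to 2027.3. Saline 2 had a signal of 862.6 on the Ctsz probe set 1417869_s_at, where the other saline pools had 576.5 to 610.8, and the log2 fold change was 0.54 without it (limma adjusted p = 0.121) and 0.41 with it.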

How the results depend on the processing

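No paired analysis was possible because leptin and saline pools share no replicate number. The fit with the actin ratio as a covariate called 654 probe sets, 0 cathepsin probe sets, 0 cathepsin genes and 5 other lysosome genes, where the fit reported called 1561, 3, 3 and 9. Without a mean-variance trend 1 cathepsin probe set, 1 cathepsin gene and 3 other lysosome genes were called. Centring on the median of all probe sets gave 3992 probe sets, 3 cathepsin genes of which 2 were lower, and 19 other lysosome genes. Centring on the tested probe sets, chosen after seeing the data, gave 1 cathepsin gene and 1 cathepsin probe set. The mean over probe sets of a gene gave 1 cathepsin gene, and array weights 14 other lysosome genes. With 1 pool left out at a time, 878 to 1436 probe sets, 1 to 3 cathepsin probe sets, 1 to 3 cathepsin genes and 2 to 9 other lysosome genes were called, on fewer samples.

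Among the cathepsins, signs turned for 6 of the 7 genes that were not called, Ctsd being the exception. With the actin covariate Ctsb was at -0.023, Ctse at 0.050, Ctsh at -0.20, Ctsz at -0.36 and Lgmn at -0.060. Ctsb was at -0.0086 with array weights and at -0.23 and -0.064 under the 2 centrings, and Ctsz at -0.083 under the first. Ctse was at 0.097 under loess, 0.073 under quantile scaling and 0.13 as the mean of its probe sets, where Ctsl was at 0.059. With 1 pool left out, Ctse ran from -0.12 to 0.034 (0.011 without leptin 8, 0.034 without saline 1) and Ctsz from -0.038 (without saline 1) to 0.31. The cause was not tested. Of the alternatives in which each was tested, Ctsk was called in 19 of 20, Ctsa in 10 of 21, Ctsc in 8 of 21, Ctss and Laptm5 in 21 of 21, Cd68 in 17, Atp6v1h in 16, Asah1 and Cln3 in 13, Scpep1 in 10, Idua in 8 and Cstb in 7. Ctsc was also lost without a filter (limma adjusted p = 0.0557). Only above the 75th percentile of brightness was Ctsk too dim to be tested.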
